A study of Mus musculus with 32 samples.

Results

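The comparison described here is between 7 mouse tumour libraries whose titles start with the letter D and 9 whose titles start with M, which together are the 16 libraries of the carbon-ion arm among the 32 libraries of the series. Every library came from a tumour of KPC36 cells, a line of mouse pancreatic ductal adenocarcinoma. Each D or M library was placed by its treatment label in the untreated controls of that arm (4 D and 4 M) or among the carbon-irradiated tumours (3 D and 5 M). The photon arm, with 8 untreated and 8 irradiated libraries, holds M titles alone. What the letter stands for is not given in the sources used here. The title numbers ran from 1 to 77 with D and from 1 to 35 with M. The series' design text places collection at days 4 and 7 after treatment. The day of a given library is not in the labels used here, and neither are the dose, the site of the tumour, the mouse strain or the age and sex of the mice. Whether the letter follows any of these was therefore not tested. All 16 tumours share the same cell line, so the comparison holds for 1 line. Nothing in the labels says that libraries of a group came from separate animals, so the p-values measure the spread between these samples.

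A tumour grown from a cell line is a mixture. The malignant epithelial cells sit among fibroblasts, vessels, macrophages and lymphocytes of the host, and a piece of tumour can also carry fat or muscle from beside it. Ionising radiation is known to activate the p53 pathway, with Cdkn1a (the cell cycle inhibitor p21) among its targets, and the type I interferon response, with Isg15 and Ifit genes among its targets. Carbon ions deposit energy more densely along their track than photons do. In bulk RNA from such pieces, fewer cells of a type and less RNA per cell cannot be told apart. The question asked of the letters was whether tumours that carry the same treatment label form separate classes by title.

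The 16 libraries matched their label as epithelial tumours. The 12 epithelial markers, keratins and junction genes such as Krt8, Krt18 and Cldn4, summed to 3362 to 5221 CPM (counts scaled to a common library size) in the D libraries and 3089 to 5778 CPM in the M libraries. Of 12 markers of pancreatic acinar cells only 2 were expressed at a testable level, with sums of 6.90 to 12.1 CPM in D and 6.33 to 15.3 CPM in M. Library totals ran from 25984067 to 44819586 estimated counts in D and from 22778240 to 71645740 in M. The mean total was 36229000 ± 7031900 (SD, n = 7) for D and 37027000 ± 13923000 (SD, n = 9) for M, and an exact permutation test of the letters within each treatment gave p = 0.955. The number of genes detected was 26467 ± 1189 in D and 26538 ± 968 in M (exact permutation p = 0.933). The 50 most abundant genes took 20.006% ± 3.184 of the counts in D and 19.3% ± 2.98 in M (exact permutation p = 0.594), and mitochondrially encoded genes took 2.08% ± 0.60 and 1.82% ± 0.75 (exact permutation p = 0.492). Each of these 4 two-sided tests enumerated all reassignments of the letters, and the Benjamini-Hochberg adjusted p was 0.955 in all 4. If the deposited values had been rescaled, these totals are not numbers of reads.

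A pair of M-titled untreated libraries stood apart, and results that rest on them are given with and without them. The first, replicate 1, was rich in fat genes. It held 22.5 CPM of Adipoq (adiponectin, a hormone of fat cells), against 0 to 2.43 CPM in the other 15 libraries, and 23.5 CPM of Plin1 (perilipin, which coats lipid droplets), against 0 to 1.89 CPM. Cfd (adipsin, a fat-derived protease) stood at 170.7 CPM there and at no more than 11.8 CPM in any other M library and 7.71 CPM in any D library. In that library 17 genes exceeded 4 CPM and were over 4 times every other library, against 0 to 5 such genes in each of the others. Gm3625 was among the most extreme, with 117.4 CPM against 0.501 to 1.78 CPM elsewhere, as was Pgr (the progesterone receptor), with 13.7 CPM against at most 1.60 CPM. The second, replicate 3, held 123.9 CPM of Gm26444 and 46.9 CPM of Gm22068, a pair of genes annotated as small nuclear RNAs, against at most 2.19 and 0.432 CPM in the other libraries. Its 43 tested small nuclear RNA genes summed to 5030 CPM, above the range of 385 to 3354 CPM in the other 15. The genes in this paragraph were chosen after their values were seen.

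Across the whole transcriptome the letters could not be separated. With treatment as a block, edgeR's quasi-likelihood test on 20913 genes called 0 genes between D and M at a Benjamini-Hochberg adjusted p under 0.05, which is 0% of the genes. The smallest adjusted p was 1. An unadjusted p under 0.05 was reached by 302 genes, or 1.44%, of which 138 (0.66%) were higher in D and 164 (0.784%) lower. DESeq2 called 0 genes with 369 at an unadjusted p under 0.05, and limma-voom called 0 with 667. No gene had all 7 D libraries above, or all 7 below, all 9 M libraries (0 genes, 0%). The count stayed at 0 in each of the 28 alternative fits, including 16 that left out 1 library each, while the number at an unadjusted p under 0.05 ranged from 75 to 1061. The largest number with 1 library left out was 714, without M-titled untreated replicate 3, and it was 790 without both libraries that stand apart.

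The fit with treatment as a block was precise enough to bound the difference over both treatments for most expressed genes. The median absolute D-minus-M difference was 0.10 on the log2 scale and the median standard error 0.19. Within the untreated tumours alone these were 0.14 and 0.26, and within the irradiated ones 0.20 and 0.27. The intervals given next are for the blocked difference and do not bound the difference within 1 treatment. For the 12169 genes that had a defined standard error and averaged 2 or more in log2 CPM, the median standard error was 0.12. The 95% confidence interval of the difference lay within 2-fold in both directions for 11810 of them (97%) and within 1.5-fold for 10611 (87.2%). Among the 8741 genes below that level the median standard error was 0.36, and 4272 intervals (48.9%) lay within 2-fold. For low genes, a difference of 2-fold was therefore often not detectable. The small unadjusted p-values also sat mainly among low genes, with 196 of 8742 genes (2.24%) under that level against 106 of 12171 (0.871%) above it. By chromosome the median difference ran from -0.04 for X to 0.05 for chromosome 3, and the share of genes at an unadjusted p under 0.05 ran from 0.662% on chromosome 8 to 2.06% on chromosome 9, beside 1.47% of the 20095 genes placed on GRCm38.

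Libraries were as alike across letters as within them. Among libraries of the same treatment, the median Pearson correlation of log2 CPM over the tested genes was 0.968 for D with D (9 pairs), 0.968 for D with M (31 pairs) and 0.966 for M with M (16 pairs). The library most correlated with a D library was another D library in 3 of 7 cases, where 6 of the 15 other libraries were D. For M libraries it was another M library in 4 of 9 cases, where 8 of the 15 others were M. The closest pair of all, at a correlation of 0.984, was irradiated D replicate 1 with irradiated M replicate 3. The letter accounted for 4.33% of the variance of the first principal component, 1.57% of the second and 17.8% of the third, and these components held 23.7%, 14.4% and 11.4% of the variance of all genes. For the median gene the letter took 2.34% of the variance and treatment 3.09%. Any split of the libraries takes some share of the variance, and the share of an arbitrary split was not computed. The median standard deviation of a gene between libraries of 1 group was 0.26 (log2) in untreated D, 0.28 in untreated M, 0.42 in irradiated D and 0.36 in irradiated M.

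Of the 10 well-expressed genes (mean log2 CPM of at least 2) with the smallest unadjusted p, 9 are described next, and none of them passed the test. Eln, which encodes the elastic fibre protein elastin (chr5:134702593-134747323, minus strand, GRCm38, overlapping Gm30003), had the largest difference of the 9. Its levels in the untreated tumours were 36.4, 23.9, 52.5 and 33.6 CPM in D, and 145, 155, 21.4 and 97.7 CPM in M. In the irradiated tumours they were 37.1, 23.8 and 32.1 CPM in D, and 41.8, 29.8, 49.7, 136 and 287 CPM in M. The D libraries kept to a narrow band, whereas 5 of the 9 M libraries lay above the highest D library and 1 lay below the lowest. The D-minus-M difference of Eln was -1.66 ± 0.46 (SE, log2), with a 95% interval of -2.62 to -0.69, an unadjusted p of 0.0020 by edgeR's quasi-likelihood test and an adjusted p of 1. It was -1.52 within the untreated and -1.81 within the irradiated tumours. Over the 28 alternatives it ranged from -1.83 to -1.30, with an unadjusted p under 0.05 in all 28 and an adjusted p of at least 0.92. In the photon arm, where all titles are M, Eln ranged from 10.1 to 136 CPM in the untreated and from 5.77 to 58.7 CPM in the irradiated libraries.

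A pair of matrix metalloproteinases, enzymes that cleave extracellular matrix, was also lower in D. Mmp13, a collagenase (chr9:7272514-7283331, plus strand), stood at 35.4, 27.9, 36.6 and 23.6 CPM in untreated D and 40.4, 46.9, 29.6 and 38.0 CPM in untreated M, and at 54.9, 49.6 and 35.7 CPM in irradiated D and 63.0, 68.9, 56.1, 56.2 and 89.6 CPM in irradiated M. All 5 irradiated M libraries lay above the 3 irradiated D libraries, while the untreated libraries overlapped. Its D-minus-M difference was -0.42 ± 0.14 (SE, log2; unadjusted p = 0.0070, edgeR adjusted p = 1). Mmp19 (chr10:128790910-128800824, plus strand) stood at 17.6, 19.6, 20.8 and 16.8 CPM in untreated D and 44.8, 30.5, 18.5 and 23.2 CPM in untreated M, and at 23.3, 16.4 and 25.1 CPM in irradiated D and 27.1, 27.4, 24.9, 23.1 and 52.7 CPM in irradiated M. None of the 7 D libraries reached the M median, and 5 of 9 M libraries lay above the highest D library. Its difference was -0.59 ± 0.19 (SE, log2; unadjusted p = 0.0072, edgeR adjusted p = 1), and -0.44 without M-titled untreated replicate 1.

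Of the other 6 genes, the 1 that was higher in D was Dtna. Dtna, which encodes alpha-dystrobrevin of the dystrophin complex (chr18:23415135-23659715, plus strand), stood at 22.8, 23.7 and 31.3 CPM in irradiated D and at 16.7, 19.98, 16.5, 17.8 and 13.8 CPM in irradiated M. These groups did not overlap, whereas the untreated libraries did, at 19.3 to 23.03 CPM in D and 18.4 to 21.6 CPM in M. Over both treatments the difference was 0.33 ± 0.11 (SE, log2). DESeq2 called Dtna within the irradiated tumours at an adjusted p of 0.045 (0.62 on the log2 scale), where edgeR gave an adjusted p of 0.827.

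The genes lower in D were Atp2b4, Zxdb, Atf5, Ormdl3 and Gnl1. Atp2b4, a calcium pump of the plasma membrane (chr1:133699457-133801041, minus strand), differed by -0.50 ± 0.16 (SE, log2), with 13.4 to 25.9 CPM in D and 18.4 to 36.5 CPM in M. Zxdb, a zinc finger gene on the X chromosome (chrX:94724569-94730187, plus strand), differed by -0.25 ± 0.09. Atf5, a stress-responsive transcription factor (chr7:44812256-44816658, minus strand), differed by -0.28 ± 0.10. Ormdl3, a regulator of sphingolipid synthesis in the endoplasmic reticulum (chr11:98581256-98587368, minus strand), differed by -0.24 ± 0.08, and 8 of 9 M libraries lay above the highest D library, at 29.2 to 48.8 CPM against 28.7 to 36.2 CPM. Gnl1, which encodes a GTP-binding protein (chr17:35979851-35989462, plus strand), differed by -0.23 ± 0.08, with no D library above the M median. The unadjusted p of these 6 genes ran from 0.0062 to 0.012, and edgeR's adjusted p was 1 for each. Without the limit on expression the smallest unadjusted p was that of Kcnb2, a potassium channel gene at 0.163 to 1.08 CPM in D and 0.0838 to 0.283 CPM in M. Its difference was 1.67 ± 0.38 (SE, log2; unadjusted p = 0.00034, edgeR adjusted p = 1).

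**Figure D1:**
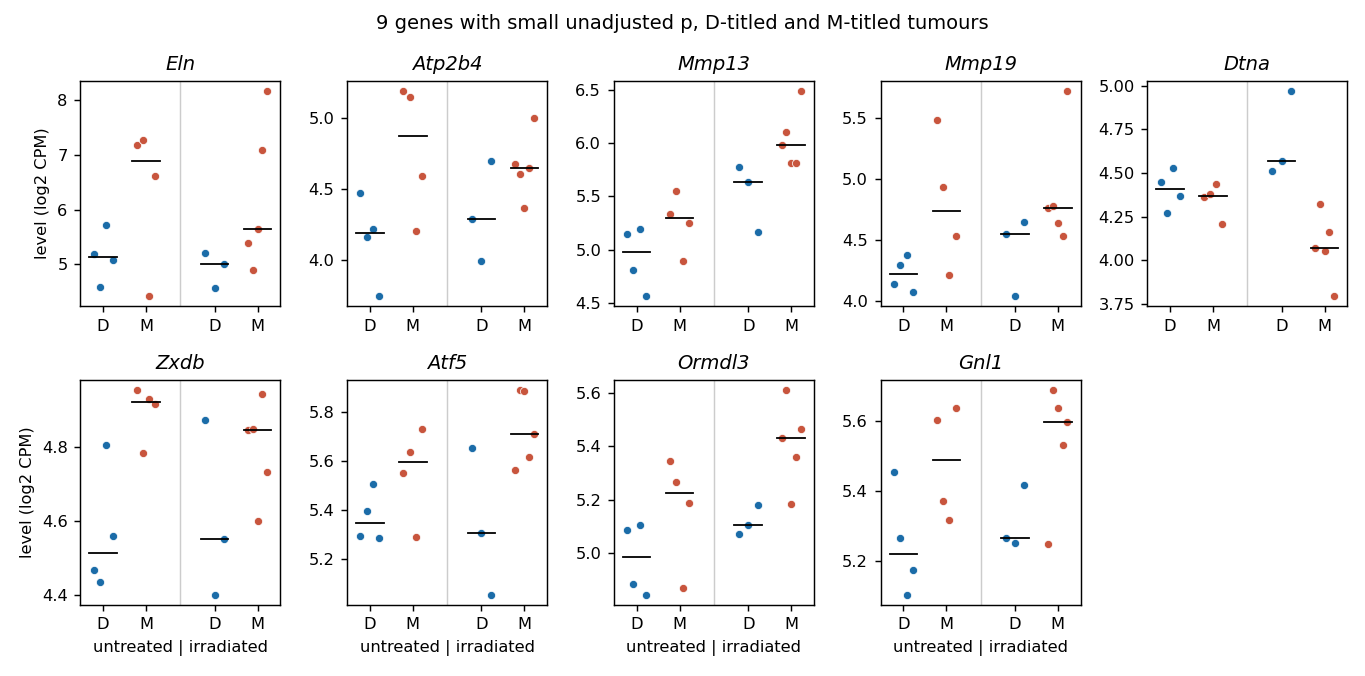
Levels of 9 of the 10 well-expressed genes with the smallest unadjusted p, in log2 CPM, for untreated tumours (left of the line) and irradiated tumours (right of it), D in blue and M in red. Each point is 1 library and the bar is the group median; no gene passed the adjusted test, and in each the D and M libraries overlap in at least 1 treatment.

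The tumour suppressor Trp53 and the X-linked RNA Xist overlapped between the letters as well. Trp53, which encodes p53, ranged from 13.5 to 20.2 CPM in D and from 11.7 to 24.7 CPM in M, with a difference of 0.08 (95% interval -0.23 to 0.38). Xist, the RNA that silences an X chromosome in female cells, was present in all 16 libraries, at 3236 to 6312 CPM in D and 1917 to 6577 CPM in M. Its difference was 0.20 (95% interval -0.30 to 0.69). With 1 library left out the difference of Xist ran from 0.06 without irradiated D replicate 1 to 0.36 without untreated M replicate 3, and that of Trp53 from 0.02 without irradiated D replicate 3 to 0.17 without irradiated M replicate 5.

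The letter difference was then taken separately in the untreated and in the irradiated tumours, which share no library. Within the untreated tumours (4 D and 4 M) edgeR called 0 genes, with 427 (2.04%) at an unadjusted p under 0.05, and DESeq2 and limma-voom also called 0, with 467 and 975. Within the irradiated tumours (3 D and 5 M) edgeR called 0 genes, with 955 (4.57%) at an unadjusted p under 0.05 and a smallest adjusted p of 0.827. There limma-voom called 0 with 2256, and DESeq2 called 3 with 1089, namely Dtna, H2ac19 (a histone H2A gene with near copies, so that its count is uncertain) and Gm45062. The last 2 are low and patchy: H2ac19 was listed at 0 in all 3 irradiated D libraries and at 0.5259 to 11.6 CPM in irradiated M, and at 14.2, 16.005, 0 and 0 CPM in untreated D. Gm45062 was listed at 0 in the 3 irradiated D libraries and between 0 and 4.95 CPM in irradiated M. The genes named from DESeq2's calls were chosen after their values were seen.

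Gene by gene, the letter differences in the untreated and irradiated tumours were weakly and negatively related. Over the 20913 genes the Pearson correlation of the pair of differences was -0.049 and Spearman's rho -0.182. Over the 12171 genes with a mean log2 CPM of at least 2 they were -0.146 and -0.245. Genes are not independent replicates, and the fit and its scaling are shared, so no p is given. Of the 427 genes at an unadjusted p under 0.05 in the untreated tumours, 160 (37.5%) had the same sign in the irradiated tumours, and among those with a mean log2 CPM of at least 2 it was 46 of 197 (23.4%), so most signs were opposite. Eln was an exception in size, with a difference below -1.5 in both.

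**Figure D2:**
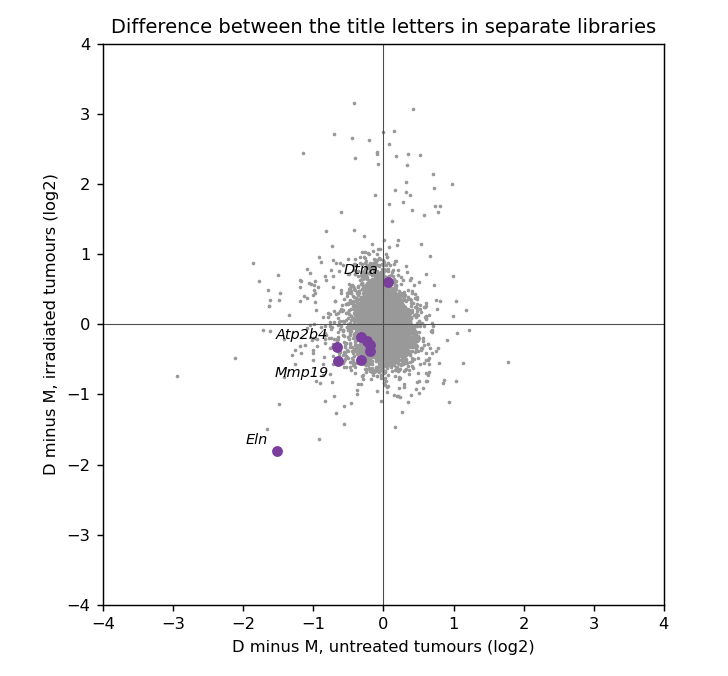
D-minus-M difference of each gene with a mean log2 CPM of at least 2 in the untreated tumours (x axis, log2) and in the irradiated tumours (y axis, log2), 1 grey point per gene and the 9 named genes in purple. The cloud shows no rising diagonal (Pearson correlation -0.146), and Eln lies at the lower left with -1.52 and -1.81.

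The interaction of letter and treatment asks whether the difference between the letters depends on irradiation. It was called for 0 genes by edgeR, with 972 (4.65%) at an unadjusted p under 0.05 and a smallest adjusted p of 0.847. By limma-voom it was called for 0 with 2195, and by DESeq2 for 2 with 1080, which were Gm44170 and H2ac19. Of the 4 genes with the smallest p, Gm44170 is an antisense transcript within the region of Sec61a1 (chr6:88503605-88504277, plus strand), and Sec61a1 encodes a subunit of the protein channel of the endoplasmic reticulum. It stood at 4.60, 5.63, 4.62 and 3.37 CPM in untreated D and 3.28, 1.39, 3.05 and 2.82 CPM in untreated M. After irradiation it stood at 1.79, 2.22 and 2.30 CPM in D and 4.58, 6.42, 6.36, 3.28 and 5.91 CPM in M. The groups did not overlap in either treatment, and their order was opposite. The interaction of Gm44170 was -2.12 ± 0.42 (SE, log2; unadjusted p = 0.00011, edgeR adjusted p = 0.847; DESeq2 adjusted p = 0.0044), and whether reads of Sec61a1 enter its count cannot be told from the file.

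The other 3 genes with the smallest interaction p were Scrib, Gm43489 and Gm26616. Scrib, a cell polarity gene (chr15:76047158-76069784, minus strand), stood at 128, 132, 123 and 109.7 CPM in untreated D and 91.4, 93.0, 82.6 and 102.6 CPM in untreated M. After irradiation it stood at 89.5, 93.0 and 90.5 CPM in D and 103.6, 94.5, 103.6, 93.0 and 101.4 CPM in M. The untreated D libraries were thus the 4 highest of all 16. The interaction of Scrib was -0.54 ± 0.13 (SE, log2; unadjusted p = 0.00089, edgeR adjusted p = 0.847). Gm26616 stood at 9.17, 10.6, 3.99 and 1.47 CPM in untreated D and at 0.309 to 0.827 CPM in 11 of the other 12 libraries, with irradiated M replicate 5 at 7.88 CPM. Gm43489 did not exceed 0.391 CPM in any library.

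The gene lists, 17 of cell type markers and 26 of pathways, held 537 symbols, of which 531 matched the file and 491 were tested. None of the 491 passed the adjusted test between D and M. An unadjusted p under 0.05 was reached by 9 (1.83%), beside 1.44% of all genes. The median difference of 41 of the 43 lists lay within 0.5 of 0 on the log2 scale, beside a median of 0.01 over all genes tested. The 2 outside were adipocyte and skeletal muscle genes.

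Adipocyte genes were lower in D in 8 of 9 tested members, 5 of them at an unadjusted p under 0.05, with a median difference of -3.18. Pck1 (the gluconeogenic enzyme of fat and liver) differed by -4.92 ± 1.48, Lep (the satiety hormone leptin) by -3.92 ± 1.43, Adipoq by -3.34 ± 1.24 and Plin1 by -3.18 ± 1.35 (SE, log2). By mean log2 CPM the list stood at -0.86, 1.28, 1.12 and -1.34 in untreated D and -0.70, 0.13 and 0.22 in irradiated D, against 5.19, 2.11, -1.19 and -0.36 in untreated M and -0.78, -0.43, -1.10, -0.34 and 1.92 in irradiated M. Without M-titled untreated replicate 1 the median of the list was -0.72, with 0 of 8 tested members at an unadjusted p under 0.05, without irradiated M replicate 5 it was -1.72, with 2 of 8, and without untreated M replicate 2 it was -2.24, with 4 of 8. These 3 M libraries lay above every D library, and the other 6 lay within the D range.

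Skeletal muscle genes were higher in D in 14 of 14 members, with a median difference of 1.40 and 0 members at an unadjusted p under 0.05. The summed level of the list, which holds actin, myosin and troponin genes of fast fibres, was 71.4, 1719, 3647 and 826 CPM in untreated D and 1662, 842 and 8111 CPM in irradiated D. In M it was 10.97, 4833, 527 and 329 CPM untreated and 91.05, 1576, 269, 27.2 and 548 CPM irradiated. Every D library held over 70 CPM of these transcripts, whereas 2 of the 9 M libraries held less than 30 CPM, and both letters spanned more than 100-fold. Ttn, the giant spring protein titin, had the smallest unadjusted p of the list (0.083), with a difference of 1.78 ± 0.97 (SE, log2). The median of the list was 0.48 without irradiated D replicate 3 and 2.57 without untreated M replicate 2. It was -0.04 within the untreated tumours and 2.54 within the irradiated ones.

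**Figure D3:**
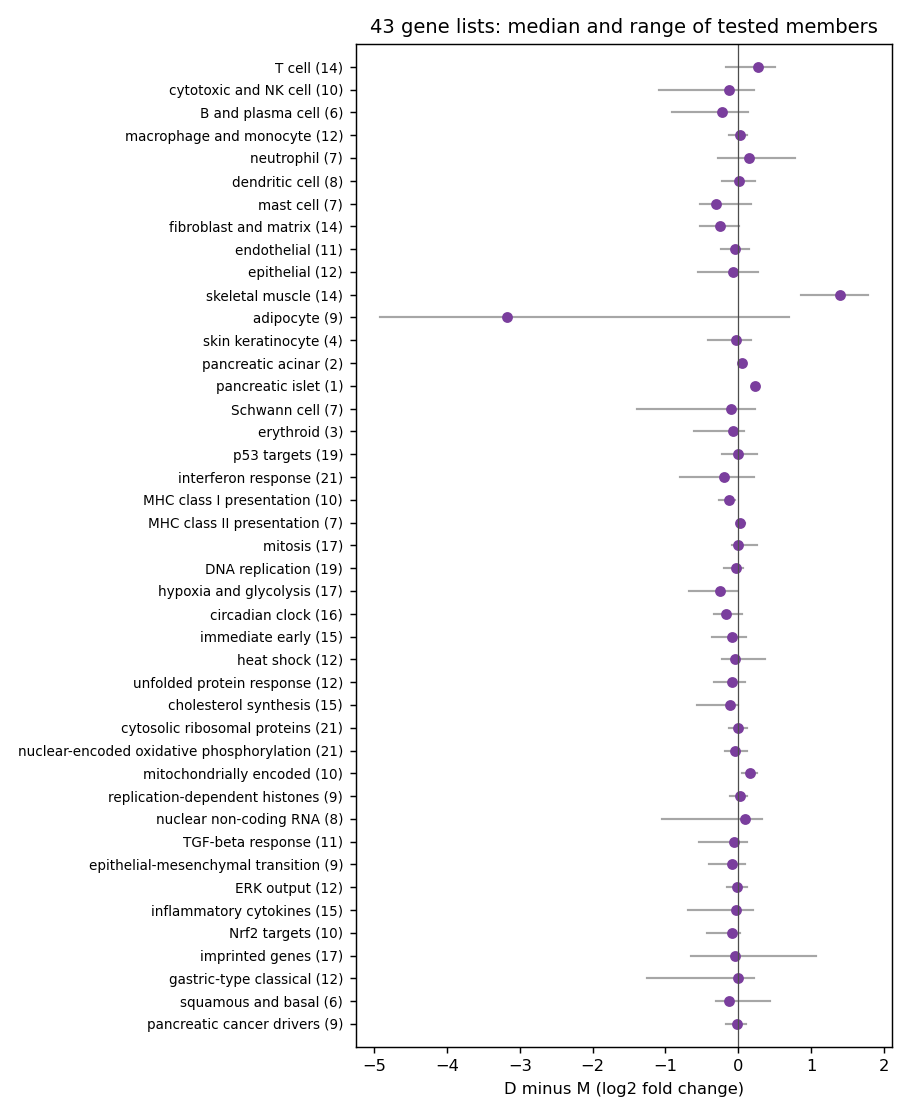
Median D-minus-M difference (log2) of 43 gene lists as points, with the range of the tested members as lines and the number tested in brackets. All lists but adipocyte (-3.18) and skeletal muscle (1.40) have a median within 0.5 of 0.

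No member of a stromal or immune list passed the adjusted test. Fibroblast and matrix genes were lower in D in 13 of 14 members, with a median of -0.26. Only Lum (lumican, a proteoglycan of collagen fibrils) had an unadjusted p under 0.05, at -0.45 ± 0.20 (SE, log2; unadjusted p = 0.040, edgeR adjusted p = 1). Col3a1 (type III collagen) differed by -0.52 ± 0.26, Postn (periostin) by -0.31 ± 0.16 and Sparc (osteonectin) by -0.29 ± 0.16. Col3a1 levels were 2094, 1842, 2349 and 2188 CPM in untreated D and 4874, 4117, 1346 and 3134 CPM in untreated M, so that 3 of the 4 untreated M libraries lay above and 1 below all untreated D libraries. That 1 library, M-titled untreated replicate 3, was also the lowest of the 9 M libraries for Eln, Mmp13 and Mmp19. Macrophage genes had a median of 0.02 over 12 members, endothelial genes -0.05 over 11, epithelial genes -0.07 over 12, dendritic cell genes 0.01 over 8 and neutrophil genes 0.15 over 7. With 1 library left out the endothelial median ran from -0.20 (irradiated D replicate 3) to 0.02 (untreated M replicate 1). The epithelial median ran from -0.13 (untreated M replicate 1) to 0.00 (irradiated D replicate 1). The macrophage median ran from -0.02 to 0.08 and the dendritic cell median from -0.06 to 0.13. The neutrophil median was 0.03 without irradiated D replicate 3, 0.07 without irradiated M replicate 1, 0.06 without untreated M replicate 1, 0.08 without untreated M replicate 4 and 0.24 without untreated M replicate 3.

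T cell genes were higher in D in 12 of 14 members with a median of 0.27, with none at an unadjusted p under 0.05. The T cell median was 0.07 without irradiated D replicate 1, 0.10 without untreated D replicate 2 and 0.42 without untreated D replicate 1. The mean log2 CPM of the list ran from -1.63 to 0.42 in the D libraries and from -1.05 to -0.05 in the M libraries, so that the D range enclosed the M range. Cytotoxic and NK cell genes had 5 of 10 members on either side, and their median of -0.13 lay between -0.37 (without untreated D replicate 2) and 0.06 (without irradiated D replicate 2) with 1 library left out. Prf1 (perforin, which opens pores in target cells) was the 1 member of these at an unadjusted p under 0.05, at 0.231 to 1.40 CPM in D and 0.712 to 4.09 CPM in M. Its difference was -1.09 ± 0.43 (SE, log2; unadjusted p = 0.022, edgeR adjusted p = 1). Gzmb (granzyme B) differed by -1.004 ± 0.483. T cell markers were scarce in all libraries, summing to 7.44 to 29.002 CPM in D and 9.55 to 16.4 CPM in M, beside 748 to 1110 CPM and 700 to 1190 CPM for macrophage markers.

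Pathway lists had medians between -0.26 and 0.16. Mitochondrially encoded genes were higher in D in 10 of 10 members, with a median of 0.16. It ran from 0.05 without irradiated D replicate 1 to 0.40 without untreated M replicate 3. Interferon response genes were lower in D in 18 of 21 members, with a median of -0.20. That ran from -0.43 without irradiated D replicate 1 to 0.02 without irradiated M replicate 5. Neither list had a member at an unadjusted p under 0.05. Hypoxia and glycolysis genes were lower in D in 17 of 17 members with a median of -0.26 and 0 members at an unadjusted p under 0.05. The hypoxia median was -0.03 within the untreated tumours and -0.49 within the irradiated ones, and over both it was -0.11 without irradiated M replicate 1 and -0.17 without irradiated D replicate 3. Cholesterol synthesis genes were lower in D in 15 of 15 members with a median of -0.12 and 0 members at an unadjusted p under 0.05. This median was -0.04 without irradiated D replicate 1, -0.06 without irradiated D replicate 3 and -0.25 without irradiated D replicate 2. Members of a list are measured in the same libraries and are not independent, so a shared sign adds little. Over all genes with a mean log2 CPM of at least 2, 44.8% were higher in D. MHC class I genes were lower in D in 10 of 10 members with a median of -0.13. It was -0.03 without irradiated M replicate 5, -0.04 without untreated M replicate 1, -0.06 without irradiated D replicate 2, -0.07 without untreated D replicate 1, and -0.21 without untreated D replicate 2 or irradiated D replicate 3. Of these genes, Erap1 (a peptidase that trims peptides for MHC class I) had an unadjusted p of 0.023 at -0.23 ± 0.09 (SE, log2). Unfolded protein response genes had a median of -0.09, which was -0.03 without irradiated D replicate 1 and -0.14 without untreated D replicate 1, and of them Hspa5 (the chaperone BiP) had an unadjusted p of 0.039 at -0.19 ± 0.08. Mitosis genes had a median of -0.00 over 17 members, p53 targets -0.00 over 19, ribosomal proteins -0.01 over 21 and pancreatic cancer drivers -0.02 over 9.

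**Figure D4:**
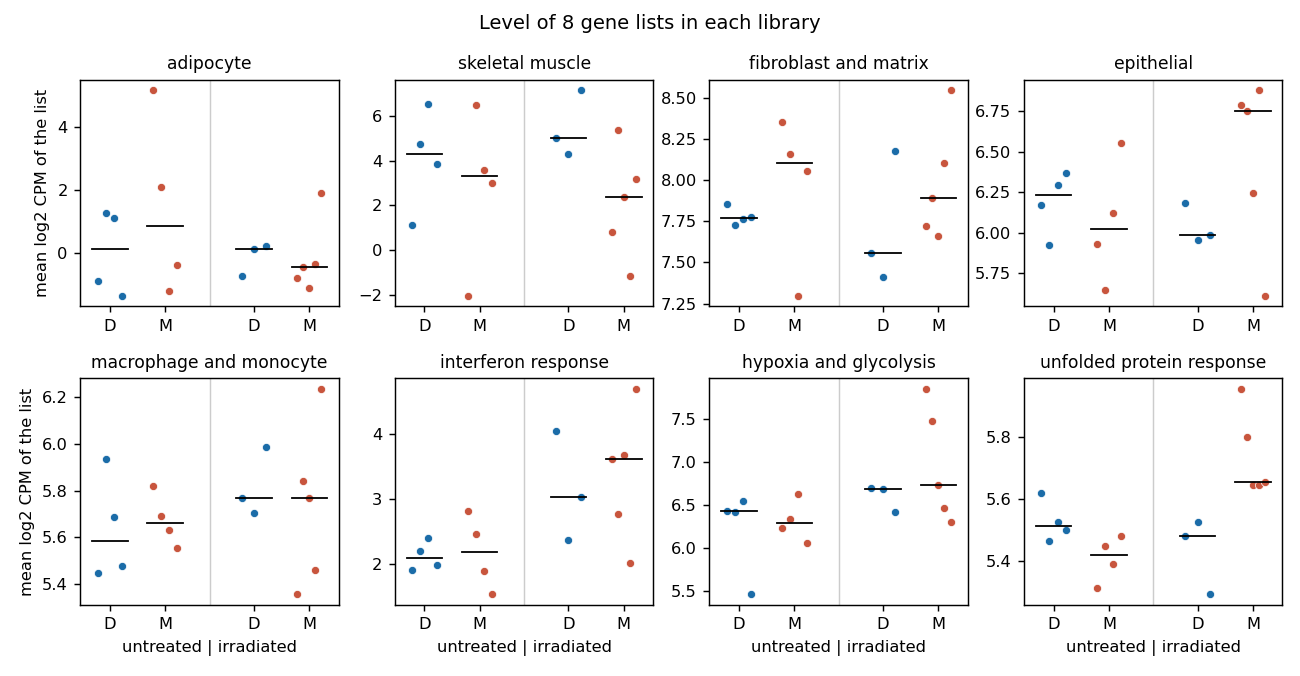
Mean log2 CPM of 8 gene lists in each library, for untreated tumours (left of the line) and irradiated tumours (right of it), D in blue and M in red, with the group median as a bar. The adipocyte panel shows 1 untreated M library at 5.19, and the unfolded protein response panel shows the 5 irradiated M libraries (5.65 to 5.96) above the 3 irradiated D libraries (5.29 to 5.53).

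The effect of carbon ions was also taken within each letter, where the 7 D and the 9 M libraries again share none. In the D-titled tumours (3 irradiated, 4 untreated) edgeR called 0 genes, with 554 (2.65%) at an unadjusted p under 0.05, of which 266 (1.27% of all genes) were higher after irradiation. In the M-titled tumours (5 irradiated, 4 untreated) edgeR called 0 genes, with 1342 (6.42%), of which 844 (4.04%) were higher. Numbers of libraries differ between the letters, and the interaction above is the test of the difference. By limma-voom the calls were 0 with 1374 in D and 0 with 1919 in M. By DESeq2 they were 5 with 641 in D and 25 with 1473 in M. Over 20913 genes the carbon-ion effects of both letters had a Pearson correlation of -0.052 and a Spearman's rho of -0.166, and 281 of the 554 genes (50.7%) had the same sign in M.

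Interferon-stimulated genes had positive carbon-ion medians in both letters. All 21 tested members were higher after irradiation in D, 12 of them at an unadjusted p under 0.05 beside 1.27% of all genes. Their median was 1.18 on the log2 scale beside 0.04 over all genes. In M all 21 were higher, 15 of them at an unadjusted p under 0.05 beside 4.04% of all genes, with a median of 1.39 beside -0.00. None passed edgeR's adjusted test, and 0 of 21 had an unadjusted interaction p under 0.05, beside 4.65% of all genes. In D the count of 12 rested on few libraries: it was 2 without irradiated replicate 1 (median 0.62), 5 without untreated replicate 1 and 6 without untreated replicate 4. In M the median was 0.92 without irradiated replicate 5, with 11 of 21. Isg15, a ubiquitin-like protein, stood at 1.40, 1.08, 1.65 and 1.24 CPM in untreated D and 6.68, 2.97 and 4.44 CPM in irradiated D. In M it stood at 2.04, 1.98, 1.49 and 0.863 CPM untreated and 5.95, 3.73, 8.20, 1.89 and 13.7 CPM irradiated. Irradiated and untreated libraries did not overlap in D, while in M the irradiated replicate 4 fell among the untreated ones. The carbon-ion difference of Isg15 was 1.798 ± 0.505 in D and 2.06 ± 0.47 in M (SE, log2). DESeq2 called 3 of the 21 members in M (Isg15, Xaf1 and Rtp4), beside 25 of the 20913 genes in the fit. The list does not hold every interferon-induced gene, so 3 is not the number of such genes among the 25. These 3 genes were chosen after their values were seen.

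Cdkn1a had a larger carbon-ion difference in M than in D, and the interaction did not pass the test. Its levels were 35.6, 57.7, 38.3 and 17.5 CPM in untreated D and 88.1, 28.0 and 37.4 CPM in irradiated D. In M they were 28.1, 25.65, 29.95 and 20.98 CPM untreated and 124.05, 77.7, 93.3, 26.3 and 125.1 CPM irradiated. In D only 1 of 3 irradiated libraries lay above all untreated ones, and in M 4 of 5 did. The carbon-ion difference of Cdkn1a was 0.46 ± 0.46 in D and 1.77 ± 0.43 in M (SE, log2), and the interaction was -1.31 ± 0.63 (unadjusted p = 0.052, edgeR adjusted p = 0.847). DESeq2 called Cdkn1a in M at an adjusted p of 0.017, where edgeR gave 0.624. It did not call the gene in D or for the interaction. The 19 p53 targets as a list had medians of 0.09 in D (0.06 without irradiated replicate 2 to 0.23 without irradiated replicate 3) and 0.15 in M, with 2 and 6 members higher at an unadjusted p under 0.05, beside 1.27% and 4.04% of all genes, and 0 with such an interaction p. The D count was 0 without untreated D replicate 1 or 2, and the interaction count was 3 without irradiated D replicate 1.

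Several stress lists had a higher carbon-ion median in M than in D. Over all genes with a mean log2 CPM of at least 2, 40.6% had a higher carbon-ion difference in D than in M. Most well-expressed genes thus leaned the same way as these lists. Hypoxia and glycolysis genes had a median of 0.38 in D, with 0 of 17 members at an unadjusted p under 0.05, and 0.79 in M, with 12 of 17, beside 2.65% and 6.42% of all genes. The interaction count, 1 of 17, was near the 4.65% of all genes. The D median was 0.18 without untreated D replicate 4, the library lowest in these genes. By mean log2 CPM the list stood at 6.24, 6.33, 6.63 and 6.06 in untreated M and at 7.85, 7.47, 6.74, 6.46 and 6.30 in irradiated M. Only irradiated M replicates 1 and 2 lay far above the untreated ones, and replicates 4 and 5 lay among them. Without irradiated M replicate 1 the M median was 0.50, with 6 of 17 members higher at an unadjusted p under 0.05. That count was 7 without irradiated M replicate 2 and 7 without untreated M replicate 1.

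P4ha1, a collagen prolyl hydroxylase, stood at 85.4, 68.03, 68.8 and 45.5 CPM in untreated D and 94.5, 87.7 and 82.8 CPM in irradiated D. In M P4ha1 stood at 84.3, 66.7, 76.7 and 59.7 CPM untreated and 185, 135, 102, 87.8 and 110 CPM irradiated, with no overlap. Unfolded protein response genes had medians of -0.10 in D and 0.28 in M, with 8 of 12 members in M higher at an unadjusted p under 0.05 and 4 of 12 with such an interaction p, beside 4.04% of all genes higher in M and 4.65% for the interaction. The count of 8 was 2 without untreated M replicate 1, 4 without untreated M replicate 3 and 4 without irradiated M replicate 2, and 5 without any 1 of untreated D replicate 3, untreated M replicate 2 and irradiated M replicates 1 and 5. The interaction count of 4 was 1 without irradiated D replicate 3 and 2 without irradiated D replicate 1. TGF-beta response genes had medians of -0.05 and 0.38, with 0 and 6 of 11 members higher at an unadjusted p under 0.05 and 3 of 11 with such an interaction p, which was 0 of 11 without irradiated D replicate 1, 1 without untreated M replicate 2 or 3 and 5 without untreated D replicate 4. Trib3, a stress-induced pseudokinase of the unfolded protein response, differed by -0.18 ± 0.21 in D and 0.51 ± 0.18 in M (SE, log2), and Pmepa1, a feedback inhibitor of TGF-beta signalling, by -0.13 ± 0.14 in D and 0.38 ± 0.13 in M. Neither interaction passed the adjusted test (edgeR adjusted p = 0.847), and the same holds for every list member. Cholesterol synthesis genes had negative carbon-ion medians in both, of -0.39 in D (-0.25 without irradiated replicate 1 and -0.61 without irradiated replicate 2) and -0.33 in M. Members higher after irradiation were 0 of 15 in D and 2 of 15 in M. An unadjusted p under 0.05 was reached by 7 and 5 of the 15, beside 2.65% and 6.42% of all genes.

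Lists of cell type markers also had unequal carbon-ion medians in D and M. Epithelial genes had a carbon-ion median of 0.34 in M, with 11 of 12 higher, and of -0.10 in D, with 3 of 12 higher. Over all genes with a mean log2 CPM of at least 2, 61.1% were higher after irradiation in M and 47.1% in D. For the epithelial list, single libraries moved both medians. The M median was 0.17 without untreated M replicate 1 and 0.18 without irradiated M replicate 4, and the D median ran from -0.23 without irradiated D replicate 2 to -0.03 without irradiated D replicate 3. Their summed level was 3362 to 5221 CPM in D and 3089 to 5778 CPM in M. Adipocyte genes had a median of -3.27 in M, which was -0.24 without untreated M replicate 1, and of -1.17 in D, which ran from -1.64 without irradiated D replicate 2 to -0.22 without untreated D replicate 2. Skeletal muscle genes had a median of 0.98 in D and -1.51 in M, and single libraries turned both: the D median was -0.47 without irradiated D replicate 3 and 2.09 without untreated D replicate 3, and the M median was 0.86 without untreated M replicate 2 and -2.82 without irradiated M replicate 2. Their part in the stress lists was not tested.

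By number, not by share, circadian clock genes had the most members with a small interaction p. These were 5 of 16 at an unadjusted p under 0.05, beside 4.65% of all genes and 4 of 12 unfolded protein response genes. The 5 clock genes were Tef, Per3, Dbp and Nr1d2, which are outputs or loops of the clock, and Arntl, its core activator. The first 4 had a negative difference in M and a positive one in D: Tef differed by 0.08 ± 0.16 in D and -0.72 ± 0.14 in M, and Dbp by 0.38 ± 0.37 in D and -1.10 ± 0.32 in M (SE, log2). Arntl went the other way, at -0.12 ± 0.20 in D and 0.71 ± 0.17 in M. DESeq2 called Tef in M at an adjusted p of 0.0079, where edgeR gave 0.624. The hour of collection is not in the labels used here, so its part in these values was not tested.

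DESeq2's 5 calls in D were Aacs, H2ac19, Gm45062, Gm10259 and Pgk1-rs7. Aacs, an enzyme that feeds ketone bodies into lipid synthesis (chr5:125475814-125517410, plus strand), was lower after irradiation in D, with 78.9, 103.8, 66.8 and 95.1 CPM untreated and 38.9, 57.3 and 41.5 CPM irradiated, which did not overlap. In M Aacs stood at 79.4, 80.0, 66.3 and 75.5 CPM untreated and 65.8, 54.3, 58.6, 70.2 and 68.1 CPM irradiated. The other 4 were listed at 0 in most of the 7 D libraries, and Pgk1-rs7, a near copy of Pgk1, was listed at 0 in 6 of them.

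**Figure D5:**
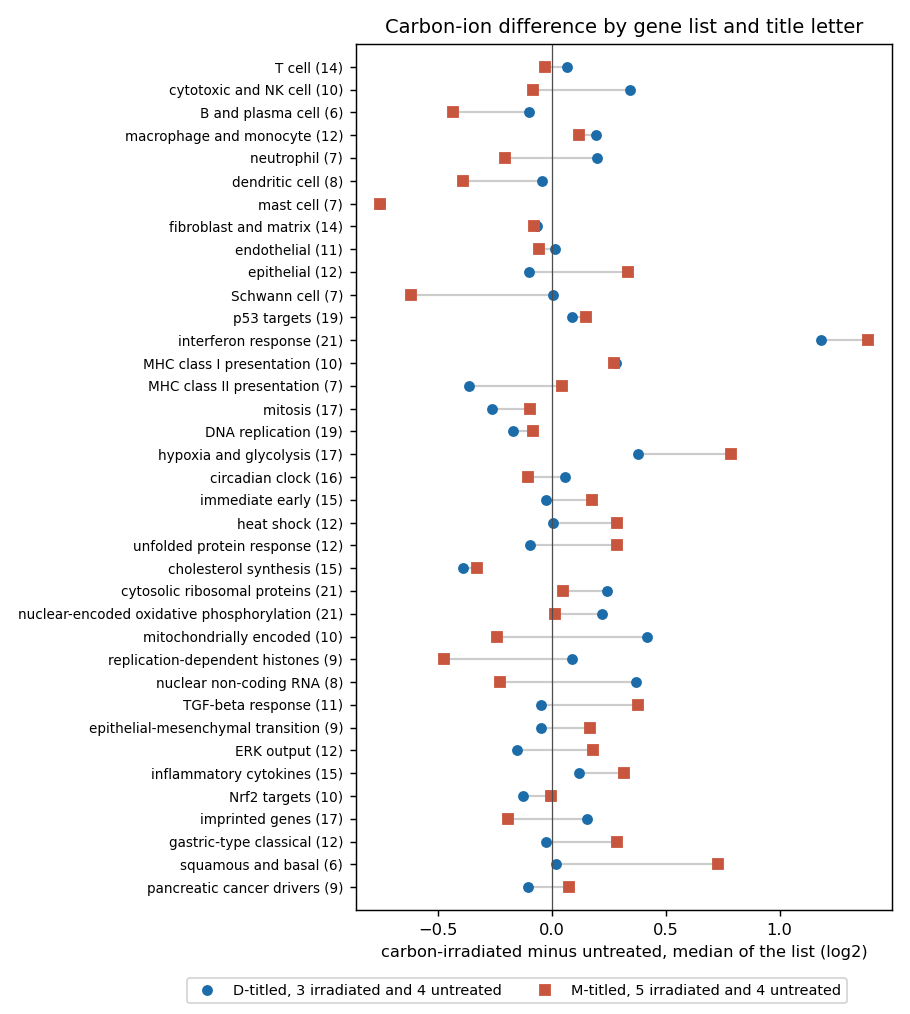
Median difference of irradiated against untreated tumours (log2) for 37 gene lists with at least 5 tested genes, in the D-titled tumours (blue circles) and the M-titled tumours (red squares), with the number of tested genes in brackets and without the adipocyte and skeletal muscle lists. The interferon response list lies farthest to the right in both, at 1.18 and 1.39.

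The untreated carbon-arm tumours of each letter were set against the 8 untreated photon-arm tumours, which carry M titles. In a fit of all 32 libraries on 21982 genes, edgeR called 270 genes (1.23%) between the D-titled carbon-arm controls and the photon controls, with 178 higher and 92 lower in the carbon arm. It called 817 genes (3.72%) between the M-titled carbon-arm controls and the same photon controls, with 508 higher and 309 lower. Beyond 2-fold there were 100 and 269. The comparisons share the photon controls, and the difference between their counts was not tested. The D count depended on single libraries: it was 157, 6 and 126 without untreated D replicates 1, 2 and 3, 533 without untreated M replicate 3, and 176, 118, 526, 134 and 120 without photon control replicates 1, 3, 4, 6 and 8. The M count was 278, 308 and 507 without untreated M replicates 2, 3 and 4, and 538, 491 and 474 without photon control replicates 3, 6 and 8.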

How the data were processed

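Bulk RNA-seq measured stranded mRNA libraries of tumour pieces stored in RNAlater, per the labels' protocols. The deposited table holds the authors' estimated counts per gene symbol for 55103 genes. The submitters' processing notes name FastQC 0.12.0, Trimmomatic 0.32, RSEM 1.3.3 and the build mm10, with no roles. Of 853648 values above 0 only 4 were whole (within 1e-06), so the deposited values had been divided among transcripts or rescaled. For 2382 genes under 5 in both of a pair of libraries, the ratio between the libraries was divided by 1 common factor. In 84.8% the result matched a ratio of whole numbers up to 20 (relative difference under 1e-06), as rescaled whole values would. The share that unrelated values would reach was not computed. The totals may therefore not be read totals, and the count-based tests take this scale as counts. The values were rounded, which changed library totals by at most 0.00403%. The table names symbols, not identifiers, so genes that overlap or have near copies are uncertain. Positions come from GENCODE vM21 (GRCm38).

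The analysis used R 4.3.3 with edgeR 4.0.16 (TMM scaling, filterByExpr with a minimum count of 10 over the 4 groups of letter and treatment, quasi-likelihood test, Benjamini-Hochberg adjustment over all genes, threshold 0.05). D against M had treatment as a block; the other contrasts used 1 coefficient per group. CPM is relative to the TMM-scaled totals of the 16 libraries (of all 32 for photon values), and log2 CPM has a prior count of 2. Alternatives used DESeq2 1.42.0, limma 3.58.1, other scalings and filters, and each library left out. Standard errors come from the quasi-likelihood F. The named genes were the 10 with the smallest p at a mean log2 CPM of at least 2, the 4 with the smallest interaction p, the 4 of each described list with the smallest p, and Xist, Trp53 and Cdkn1a; exceptions are stated. Not all genes this rule names are reported here. Members and lists were chosen with earlier results of these data known. Replicates are numbered in deposition order. List symbols were matched by symbol or older symbol. The carbon-ion effect within each letter, the robust spread, the fit without both libraries that stand apart and the refits of list medians, also of the carbon-ion effect, were added after seeing the data.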

Additional observations from a re-analysis of the deposited data

Results flagged for a closer look

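Of 189 groups of 4 or 5 libraries examined (named genes, library measures and list levels), 9 had a library whose gap to its nearest neighbour took up more of the group's range than Dixon's limit allows, and chance gives about 1 in 20. The irradiated M-titled replicate 5 accounted for 5 of them. It was highest of its group in Mmp19 (5.72 log2 CPM, the others 4.53 to 4.78), in Gm26616 (2.99 log2 CPM, the others -1.41 to -0.18), in the adipocyte list (mean log2 CPM 1.92, the others -1.10 to -0.34), in the pancreatic islet list, which rests on 1 tested gene (-0.64, the others -2.78 to -2.22), and in the epithelial-mesenchymal transition list (6.89, the others 6.24 to 6.43). The irradiated M-titled replicate 4 had the largest total, 71646000 estimated counts, against 22778000 to 36763000 in the others.

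Among the untreated libraries, D-titled replicate 4 was lowest in hypoxia and glycolysis genes (mean log2 CPM 5.46, the others 6.42 to 6.55), and D-titled replicate 1 was lowest in gastric-type classical genes (4.20, the others 4.80 to 4.89). D-titled replicate 3 had the highest share of mitochondrially encoded genes (2.49%, the others 1.58% to 1.70%).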

How the results depend on the processing

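The count of 0 genes between D and M was the same under all 28 alternatives run, which covered scaling, filters, DESeq2, limma-voom, robust spread, all 32 libraries, no treatment term, library total as a covariate, a test against 1.5-fold, each library left out and both libraries that stand apart left out. The count within the untreated tumours was 0 under all 25 alternatives run. DESeq2 gave 3 genes within the irradiated tumours, 2 for the interaction, 5 for the carbon-ion effect in D and 25 in M, where edgeR gave 0; the cause was not tested. The carbon-ion effect in M was 1 gene with all 32 libraries in the fit (Gm3625) and 1 without both libraries that stand apart (Gm44709). For the D-titled controls against the photon controls the count was 499 with the 16 controls alone, 430 with upper-quartile scaling, and 6 to 533 with 1 library left out. For the M-titled controls it was 1066 with the 16 controls alone and 278 to 986 with 1 library left out. No paired analysis was possible because the labels give no replicate numbers. Low counts limit the precision for genes under a mean log2 CPM of 2.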
